A study of Nothobranchius furzeri with 6 samples.

Results

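The microRNA rows linked to neuronal excitability and to the synapse were followed in brain of the turquoise killifish Nothobranchius furzeri. They are nfu-mir-128, nfu-mir-129, nfu-mir-137, nfu-mir-138, nfu-mir-153 and nfu-mir-218, named below without the prefix. They were taken by exact row name from the deposited table of counts, and all 6 were found among its 324 rows. The table holds 6 small RNA libraries, each from brain of a male of strain MZM-04/10p aged 39 weeks, so there is 1 group, with neither a second age, sex or strain nor a treatment to set it against. This strain is a laboratory line of wild origin, and the species is used in ageing research for its short life. Library totals ran from 11924483 to 16597229 counts. The labels do not say whether each library came from a separate fish, so p-values here rest on spread among these samples, which may be partly technical.

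A miRNA is a short RNA that guides Argonaute proteins to partly matching messenger RNAs and lowers their translation or stability. Neurons carry a set of such RNAs that act on ion channels, on the machinery of transmitter release and on the shape of dendritic spines. These targets set how readily a neuron fires and how strong its synapses are. In mouse, miR-128 restrains motor activity and neuronal excitability through ERK signalling. In rat neurons, miR-129 represses the potassium channel Kv1.1, and miR-138 limits the size of dendritic spines by acting on a depalmitoylating enzyme. In zebrafish, miR-153 acts on SNAP-25, a component of the vesicle fusion machinery. In mouse, miR-137 acts on presynaptic vesicle genes, and miR-218 is enriched in motor neurons. In mammals miR-128, miR-153 and miR-218 are each made from introns of protein-coding genes. Each row name carries a family number with no arm and no copy, so a row can pool the 5p and 3p products of several loci, and a shift between copies inside a row would not be seen.

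The 6 rows together held 8.36% ± 1.43 of all counts (SD, n = 6), and mir-128 alone made up most of that. Much of this spread came from library 4, without which the share was 7.81% ± 0.565 (SD, n = 5). As CPM, the count per 1000000 counts of the library after edgeR's TMM scaling, mir-128 averaged 65311 ± 14644, mir-153 8708 ± 2179, mir-138 4234 ± 1267, mir-129 3803 ± 552, mir-218 1146 ± 203 and mir-137 622.1 ± 145 (SD, n = 6 for each). Without library 4, mir-128 averaged 59864 ± 6753 CPM (SD, n = 5). Among the 324 rows these means ranked at places 4, 17, 23, 27, 45 and 54. The levels thus spanned about 2 orders of magnitude, with the lowest row still at 5949 to 9995 counts per library. The kit ligates adaptors to RNA ends with an efficiency that depends on sequence, so levels of different rows mix abundance with that bias. In bulk brain RNA, fewer cells of a type and less of an RNA per cell cannot be told apart.

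**Figure D1:**
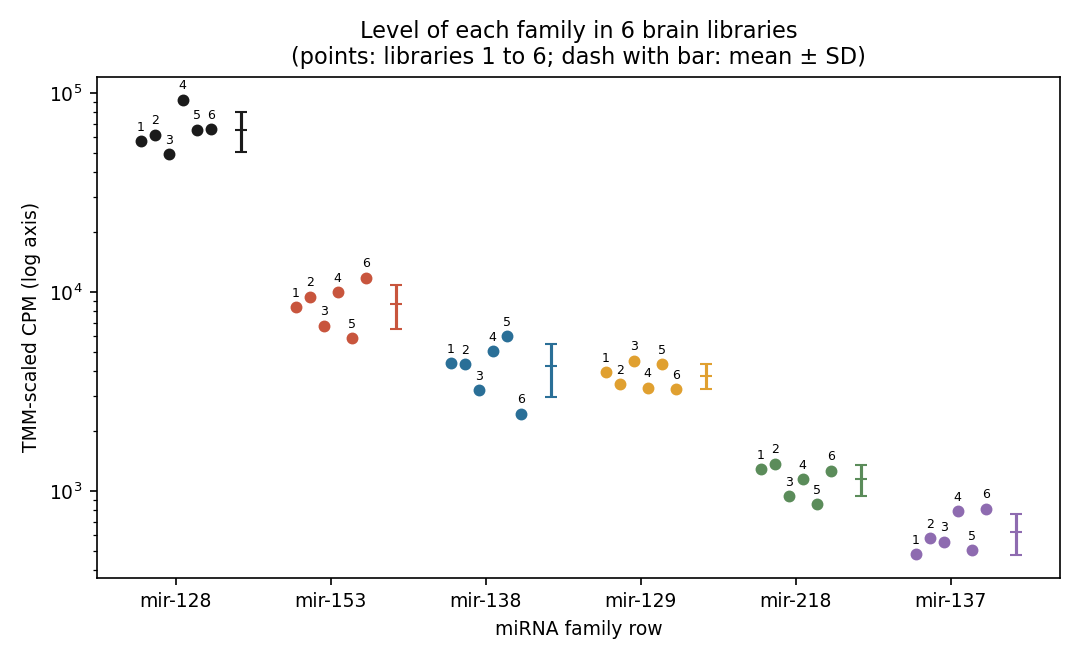
TMM-scaled CPM (log axis) of the 6 rows, ordered by mean, in libraries 1 to 6 (numbered points), with mean ± SD at the right of each group. The mir-128 points lie at 49363 to 92541 CPM, above every point of the other rows, while the points of mir-138 and mir-129 overlap.

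Of the rows tied to excitability, mir-128 was lowest in library 3 at 49363 CPM, had a median of 63524 CPM and was highest in library 4 at 92541 CPM. Exact (Clopper-Pearson) 95% limits were 92375 and 92707 CPM for library 4 and 49262 and 49465 CPM for library 3. Such limits cover the counting error of reads alone. The reads carry no molecular identifiers, so repeated reads of 1 molecule count again, and the limits can be too narrow even for the counting of molecules. Library 4 thus stood above the 5 others, which lay between 49363 and 65578 CPM. The channel-linked mir-129 had the narrowest range of the 6 rows, 1.39-fold, with 3253 CPM in library 6 as its lowest value, a median of 3697 CPM and 4527 CPM in library 3 as its highest. Its high libraries were 3, 5 and 1, and its low libraries were 6, 4 and 2.

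Among the rows tied to the synapse, mir-138 had the widest range, 2.45-fold. It was lowest in library 6 at 2442 CPM (exact 95% interval 2414 to 2469), had a median of 4366 CPM and was highest in library 5 at 5991 CPM (5948 to 6035). The vesicle-linked mir-153 was extreme in the same libraries but at the opposite ends. It was lowest in library 5 at 5869 CPM (5826 to 5912), had a median of 8927 CPM and was highest in library 6 at 11805 CPM (11745 to 11866). The range of mir-153 was 2.01-fold. The least abundant row, mir-137, was lowest in library 1 at 483.4 CPM, had a median of 568.0 CPM and was highest in library 6 at 816.4 CPM, a 1.69-fold range. Libraries 6 and 4, at 816.4 and 790.5 CPM, stood above the other 4 libraries, which reached at most 579.2 CPM.

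The motor neuron family mir-218 was lowest in library 5 at 861.5 CPM, had a median of 1205 CPM and was highest in library 2 at 1372 CPM. Its range was 1.59-fold. Libraries 5 and 3, at 861.5 and 945.4 CPM, lay below the other 4 libraries, which began at 1144 CPM.

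Shares were then taken within the 6 rows, where the library size cancels. The row mir-128 held 77.5% ± 2.51 of their summed counts, mir-153 held 10.5% ± 2.35, mir-138 5.10% ± 1.45, mir-129 4.73% ± 1.39, mir-218 1.40% ± 0.304 and mir-137 0.746% ± 0.134 (SD, n = 6 for each). In library 4 mir-128 reached 82.1% (exact 95% interval 82.0% to 82.1%), against 75.5% to 78.8% in the other libraries. The share of mir-153 ran from 7.08% in library 5 to 13.9% in library 6, and that of mir-138 from 2.87% in library 6 to 7.23% in library 5.

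The 5 rows other than mir-128 together held 1.85% ± 0.128 of all counts (SD, n = 6), from 1.67% in library 3 to 1.99% in library 4. In CPM their sum ranged 1.27-fold and each alone ranged 1.39-fold to 2.45-fold, but a sum of rows that move in different directions varies less than single rows by construction. Within this sum mir-153 held 60.3% in library 6 and 33.4% in library 5, and mir-138 held 12.5% in library 6 and 34.1% in library 5. In library 5 the counts of mir-138 and mir-153 were nearly level, at 73411 and 71916.

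**Figure D2:**
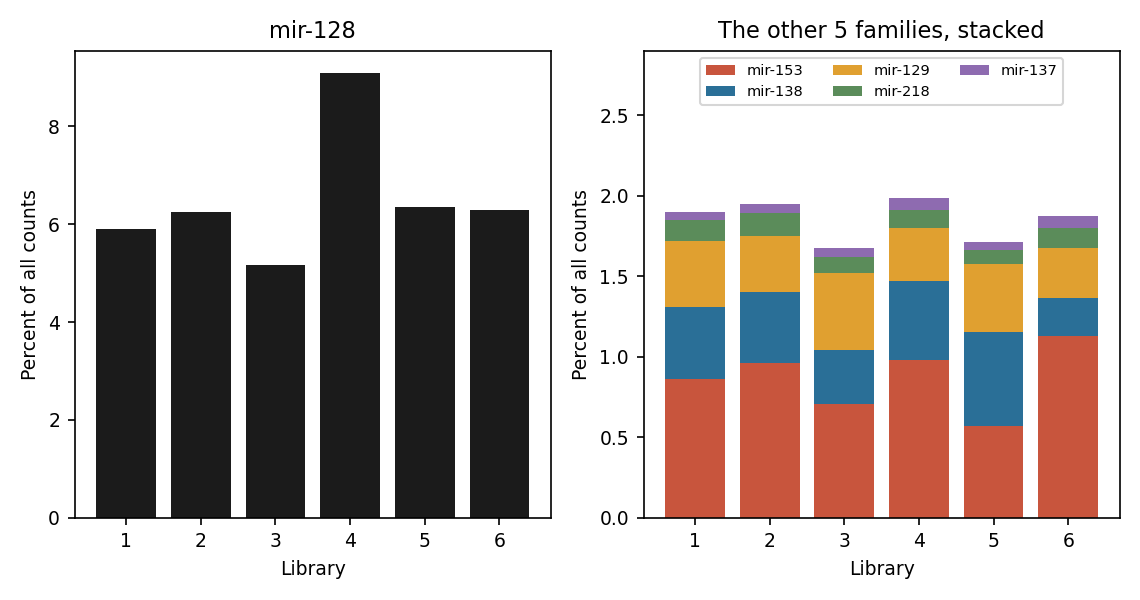
Percent of all counts in each library taken by mir-128 (left) and by the other 5 rows, stacked (right), on vertical scales that differ and both start at 0. The bar of mir-128 is highest in library 4 at 9.09%, and the stacked bars stay between 1.67% and 1.99%. The mir-153 and mir-138 segments are nearly equal in library 5, while in library 6 that of mir-153 is much the larger.

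The order of the 6 rows was tested as within-library log2 ratios of counts for all 15 pairs, by flipping the signs of the 6 ratios in all ways (an exact permutation test, two-sided), which gives p = 0.031 at the smallest. Of the 15 pairs, 13 passed this exact test, each with the same row on top in 6 of 6 libraries, p = 0.031 and a Benjamini-Hochberg adjusted p of 0.0361 over the 15. The adjusted p is this low only because so many pairs reached the smallest value together. Pairs of other features were not tested, so the count of 13 has no background beside it. It cannot be read as particular to these rows. A ratio between rows also does not cancel the bias of adaptor ligation, so the order tested is that of counts. The log2 ratio of mir-128 was 2.92 ± 0.36 to mir-153, 3.98 ± 0.45 to mir-138, 4.09 ± 0.46 to mir-129, 5.83 ± 0.37 to mir-218 and 6.72 ± 0.27 to mir-137 (SD, n = 6 for each). On the linear scale, mir-128 counts were 5.56 to 11.1 times those of mir-153 across libraries. At the low end, mir-218 exceeded mir-137 with a log2 ratio of 0.89 ± 0.35, and mir-129 exceeded mir-218 with 1.74 ± 0.45.

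Neighbours in the middle of the order did not pass this test. The log2 ratio of mir-138 to mir-129 was 0.11 ± 0.46 (SD, n = 6), with mir-138 higher in 4 of 6 libraries (exact permutation p = 0.56, also 0.56 after adjustment). The linear ratio of this pair ran from 0.708 in library 3 to 1.52 in library 4. The log2 ratio of mir-153 to mir-138 was 1.06 ± 0.73, with mir-153 higher in 5 of 6 libraries (exact permutation p = 0.063, or 0.067 after adjustment). The exception was library 5, with a log2 ratio of -0.03. Given any ratio of the other sign, the exact permutation test cannot reach a p below 0.063. Not passing therefore does not show that mir-153 and mir-138 were level.

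The ratio of mir-153 to mir-138 had the largest spread of the 15. Counts of mir-153 were 1.91, 2.18, 2.11 and 1.98 times those of mir-138 in libraries 1 to 4, 0.980 times in library 5 and 4.83 times in library 6. Libraries 1 to 4 were thus close to each other, and libraries 5 and 6 lay on opposite sides of them, 4.94-fold apart. Both rows contributed, since library 5 had the highest mir-138 and the lowest mir-153 and library 6 the reverse. The ratios of mir-138 to mir-137 and to mir-218 were the next most variable, with SDs of 0.68 and 0.61 on the log2 scale and the same libraries at the ends. The steadiest ratio was that of mir-153 to mir-218, 2.91 ± 0.21 on the log2 scale, which ran from 6.51 to 9.33 on the linear scale, a 1.43-fold range.

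**Figure D3:**
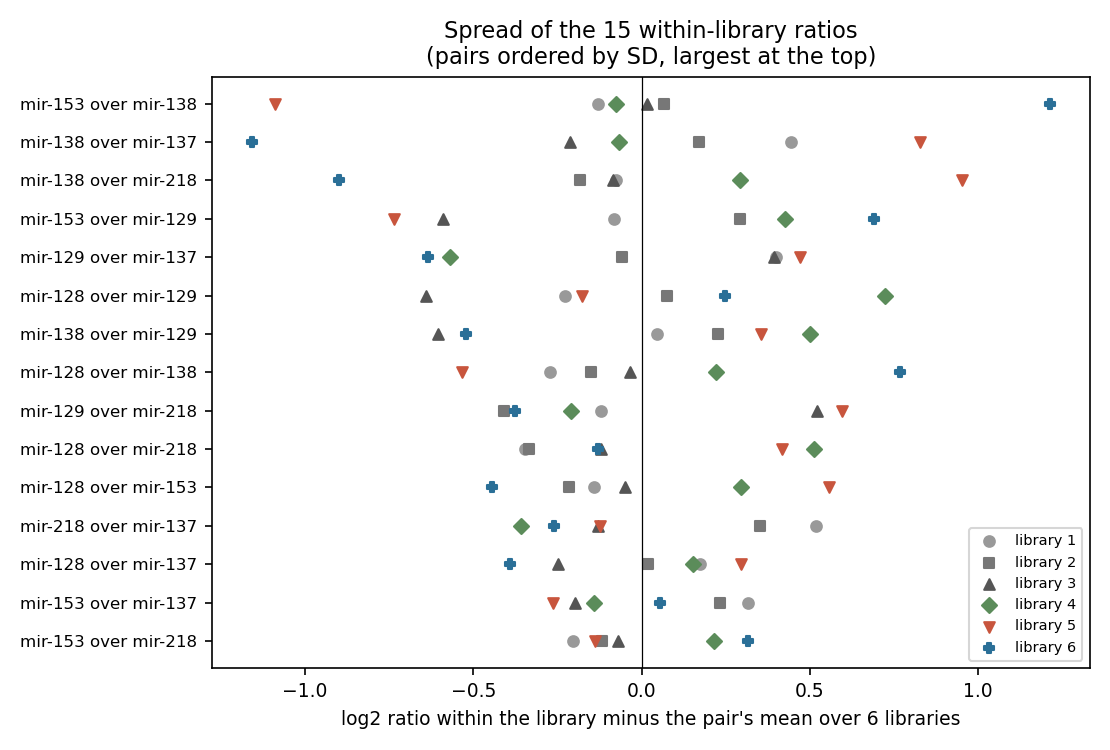
Within-library log2 ratio of each of the 15 pairs, shown as the difference from that pair's mean over 6 libraries, with 1 symbol per library and pairs ordered by SD (largest at the top). For mir-153 over mir-138, libraries 1 to 4 lie near the mean and libraries 5 and 6 lie far out on opposite sides, while for mir-153 over mir-218 all libraries lie within a 1.43-fold range.

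The next question was whether any of the 6 rows varied between libraries beyond the dispersion that edgeR's fitted trend gives for their abundance. By edgeR's goodness-of-fit test at the trended dispersion, over the 214 features that averaged 10 counts or more, 0 of the 6 rows passed at an adjusted p under 0.05, against 3.74% of all tested features. At an unadjusted p under 0.05, again 0 of 6 passed, against 8.41% of features, and as DESeq2 dispersion outliers 0 of 6, against 1.4%. The unadjusted edgeR goodness-of-fit p was lowest for mir-138 at 0.444, and the adjusted p was 0.9999 for each row. The trend that the test assumes had a biological coefficient of variation of 0.292 to 0.364 at these rows. Their tagwise values, which edgeR draws toward the trend, were 0.222 to 0.315. The SD of CPM was 14.5% of the mean for mir-129, the lowest, and 29.9% for mir-138, the highest. Spreads of the size seen here could therefore hardly pass. Each of the 6 rows did vary beyond counting noise, with a Poisson chi-square per degree of freedom of 421 for mir-137 to 43565 for mir-128, as did 82.7% of tested features at an adjusted p under 0.05. Spread beyond counting noise was thus common in this table.

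The size of the spread can also be set beside other rows, as a description. The SD of log2(CPM + 1) was 0.47 for mir-138, 0.37 for mir-153, 0.32 for mir-137, 0.30 for mir-128, 0.27 for mir-218 and 0.21 for mir-129. The median of the 6 was 0.31, against 0.27 over all 214 tested features. Among the 47 features averaging 1000 CPM or more, a limit set after the data were seen and one that includes 5 of the 6 rows, the median was 0.18. There mir-138 had a larger SD than 44 of the 47, mir-153 than 43, mir-128 than 40, mir-218 than 36 and mir-129 than 26.

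**Figure D4:**
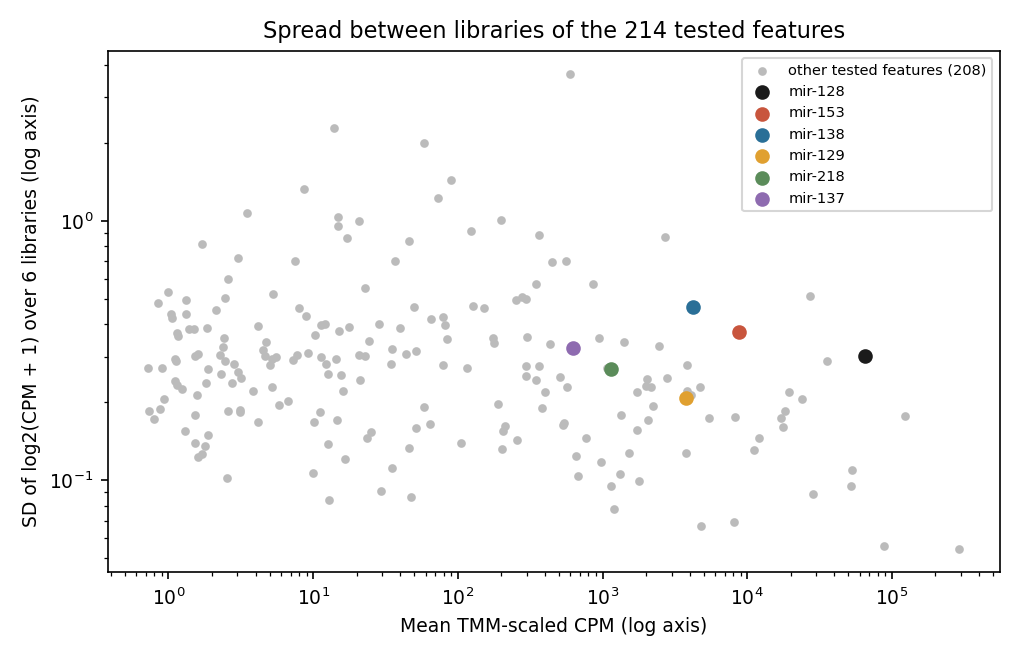
SD of log2(CPM + 1) over 6 libraries against mean CPM (both axes log) for 214 tested features, with the 6 rows in colour and the other 208 features in grey. The 6 rows lie between 0.21 and 0.47 on the vertical axis, well below the features at the top, and mir-138, mir-153 and mir-128 lie toward the upper edge of features of their abundance.

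Whether the rows moved together over the 6 libraries was tested for all 15 pairs on log2(CPM + 1), with exact permutation p-values over 720 pairings. Pearson's r was above 0 for 8 pairs and below 0 for 7, from -0.94 to 0.83. After Benjamini-Hochberg adjustment over the 15, 0 pairs passed for Pearson's r (lowest adjusted p = 0.104 in the exact permutation test) and 0 for Spearman's rho (lowest adjusted p = 0.25, exact). Unadjusted, 1 pair had a p under 0.05 for both, a number that chance alone can give among 15 pairs. That pair was mir-129 with mir-153, with r = -0.94 (exact permutation p = 0.00694, adjusted to 0.104) and rho = -0.94 (exact p = 0.0167, adjusted to 0.25). Pairs of other features were not tested for correlation, so the count of 1 has no background beside it. Without libraries 3 and 5, the farthest from the median of mir-129, r was -0.88. The libraries with the highest mir-129, 3 and 5, had the lowest mir-153, and library 6 had the lowest mir-129 and the highest mir-153.

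The row mir-153 had positive r with mir-218 and with mir-137. With mir-218, r was 0.83 (exact permutation p = 0.0514, adjusted to 0.302), rho was 0.54 (exact p = 0.297, adjusted to 0.533) and r was 0.72 without libraries 5 and 6. With mir-137, r was 0.77 (exact permutation p = 0.0806, adjusted to 0.302), rho was 0.83 (exact p = 0.0583, adjusted to 0.385), but r was 0.31 without libraries 4 and 6 and 0.62 to 0.88 without any 1 library. For mir-138 with mir-153, r was -0.52 (exact permutation p = 0.285, adjusted to 0.534), rho was -0.49 (exact p = 0.356, adjusted to 0.533) and r was 0.95 without libraries 5 and 6. The negative sign of this pair therefore rested on those libraries together, since without any 1 library r was -0.80 to -0.07. For mir-128, the r of largest size was -0.66, with mir-129 (exact permutation p = 0.139, adjusted to 0.347), rho was -0.77 (exact p = 0.103, adjusted to 0.385) and r was -0.15 without libraries 3 and 4. Libraries 3 and 4 hold the lowest and highest mir-128, and without any 1 library r was -0.78 to -0.45.

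**Figure D5:**
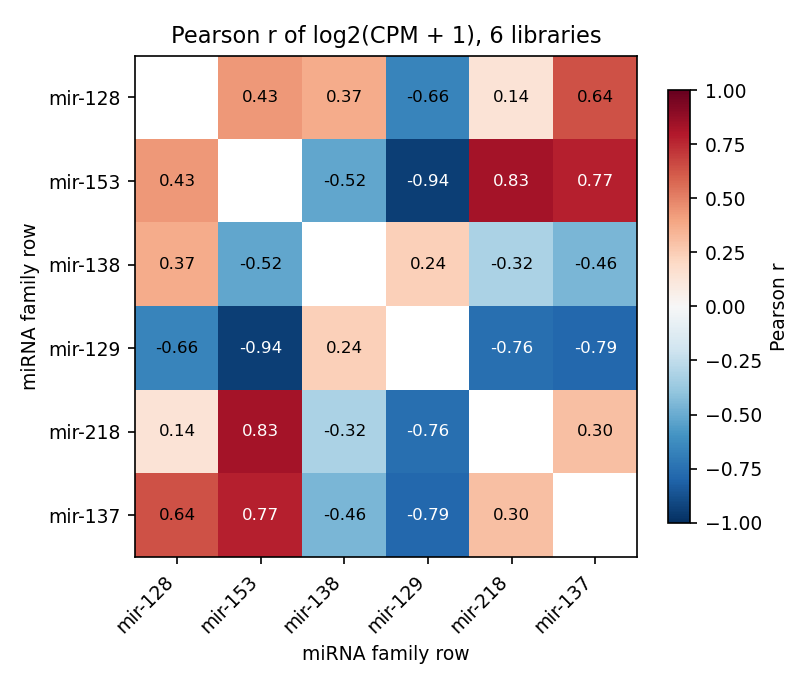
Pearson's r of log2(CPM + 1) over 6 libraries for each pair of rows, in numbers and colour (red above 0, blue below 0). The row and column of mir-129 are negative except against mir-138 (0.24), and mir-153 has its highest values with mir-218 (0.83) and mir-137 (0.77), while none of the 15 passed after adjustment.

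Rows outside the 6 with the most similar pattern were listed for each, as the 3 highest r among 140 other features averaging 100 counts or more in the same 6 libraries. These are the top of 140 and share library and scaling with the rows they are set beside, so a high r is a description. For mir-128 they were mir-3596 (r = 0.90), mir-8 (0.87) and mir-3179 (0.85), and mir-3596 and mir-8 were also lowest in library 3 and highest in library 4. For mir-129 they were mir-1338 (0.93), mir-145 (0.90) and mir-83 (0.89). For mir-137 they were mir-374 (0.91), mir-7 (0.79) and mir-609 (0.78). For mir-138 they were mir-337 (0.92), mir-425 (0.91) and pred_666 (0.89), each lowest in library 6 like mir-138 itself. The mir-337 row was at 1392 CPM in library 6 and at 2215 CPM in library 5. For mir-153 they were mir-722 (0.93), mir-676 (0.93) and mir-301 (0.92), and for mir-218 they were mir-101 (0.97), mir-190 (0.96) and mir-676 again (0.96), each lowest in library 5. The mir-676 row stood at 469.8 CPM in library 5 and 1105 CPM in library 6, with 507.1 CPM in library 3 and 984.6 to 1092 CPM in the rest.

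Of these rows, mir-8, mir-145 and mir-7 are on the lists taken here as markers of other cell types, though none need be confined to that type. The summed share of each marker list is given beside them. The epithelial list, which holds mir-8, had 3 of 3 rows present, none at 0, and ran from 0.0440% of counts in library 1 to 0.0867% in library 4, the library with the highest mir-128. The high sum in library 4 came mostly from mir-8, at 731.6 CPM. The other epithelial rows were highest in library 3, where mir-128 and mir-8 were lowest, at 74.0 CPM for mir-203 and 467.3 CPM for mir-205, against 29.0 and 121.9 CPM in library 4. The vessel wall list, which holds mir-145, had 3 of 3 rows, none at 0, and ran from 0.669% in library 5 to 1.04% in library 1. Its rows did not move alike, since library 5 had mir-145 near its highest, at 360.6 CPM, and mir-126 and mir-143 at their lowest, at 2718 and 3790 CPM. The endocrine and pituitary list, which holds mir-7, had 2 of 2 rows, none at 0, and ran from 0.0259% in library 1 to 0.195% in library 2. That range was mostly mir-375, at 5.23 to 1574 CPM, while mir-7 was at 349.9 CPM in library 2 and highest in library 6 at 921.0 CPM. Library 5 had the lowest mir-153 and mir-218 and the highest mir-138. There the red blood cell list (2 of 2 rows, none at 0) was at its lowest, 0.0186% against 0.0380% to 0.0643% in the others. The vessel wall list was also lowest there, as was, narrowly, the oligodendrocyte list, at 1.66% against 1.67% to 2.06%. As CPM, however, neither oligodendrocyte row was lowest in library 5. The mir-338 row was at 15880 CPM there, against 14772 CPM in library 3. The mir-219 row was at 1134 CPM, against 1068 CPM in library 6. The white blood cell and microglia list was highest in library 5, at 0.0589% against 0.0398% to 0.0520%. That was mostly mir-146, at 418.7 CPM, while mir-142 was lowest there, at 116.6 CPM. The remaining lists had neither end in library 5. Library 6 had the highest mir-153 and mir-137 and the lowest mir-138 and mir-129. There the neuron list (mir-124, mir-132 and mir-132b, with mir-212 absent) was highest, at 3.19% against 2.67% to 3.08%. Of its rows only mir-132 was highest there. The list of mir-9 alone was also highest there, at 5.57% against 5.04% to 5.23%. The muscle list was lowest there, at 0.0763% against 0.0952% to 0.131%. Of its rows only mir-133 was lowest there, at 769.3 CPM. The mir-1 row was lowest in library 5 and the mir-499 row in library 1. The part of these cell types in the levels of the 6 rows was not tested.

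As a check of the label, other families known from neurons were read from the same libraries. Of 9 such families, 5 had a row of their own name, and mir-212, mir-134, mir-379 and mir-485 had none. A family without a row may lie outside the annotation used, which is not known here. The 5 of 9 is therefore no result about these brains. In edgeR's test for variation, 0 of the 5 passed at an adjusted p under 0.05, against 3.74% of all tested features. That test does not bear on the label. The neurogenic mir-9 stood at 52186 ± 3512 CPM and the neuronal mir-124 at 4069 ± 599 CPM, close to mir-138 and mir-129. The activity-regulated mir-132 was at 19494 ± 2960 CPM, above mir-132b at 5453 ± 650 CPM (SD, n = 6 for each). These rows did not share their ends. The mir-124 row had the ends of mir-128 reversed, lowest in library 4 at 3364 CPM and highest in library 3 at 4885 CPM. Both mir-9 and mir-132 were lowest in library 3, like mir-128, but highest in library 6. The mir-132b row was lowest in library 1 and highest in library 4, like mir-128 at the high end only. The widest of the 5 was mir-135, with 1190 CPM in library 5 and 4915 CPM in library 1 (edgeR adjusted p = 0.0791).

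The 6 rows were last set against the rows most like them, as log2 ratios of summed counts within each library. Their sum exceeded that of mir-9 and mir-124 by 0.56 ± 0.24, that of mir-132 and mir-132b by 1.74 ± 0.18 and that of the oligodendrocyte rows mir-219 and mir-338 by 2.15 ± 0.24 (SD, n = 6 for each). Each was higher in 6 of 6 libraries, with an exact permutation p of 0.031 (signs flipped, two-sided) that stayed at 0.031 after adjustment over the 3. Each ratio was highest in library 4, at 1.01, 2.01 and 2.59. The sums have 6 rows against 2, and the direction rested on mir-128. For the other 5 rows the log2 ratio was -1.61 ± 0.11 to mir-9 and mir-124 and -0.42 ± 0.17 to mir-132 and mir-132b, both with an adjusted p of 0.0469 in the exact permutation test. To mir-219 and mir-338 it was -0.01 ± 0.09 (exact permutation adjusted p = 0.75), with the ratio near 0 on the log2 scale.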

How the data were processed

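Small RNA of 6 brain libraries was sequenced after preparation with Illumina's TruSeq kit, per the labels' protocols. The authors deposited raw counts, whole numbers for 324 features. Tools named, per the submitters' processing notes, were BWA 0.7.12-r1039, SAMtools 1.3.1-9, Trimmomatic 0.36 and bcl2fastq 1.8.4. How they were used, with which genome build and miRNA annotation, and how multiply matching reads were handled is not given in the sources used here, so near-identical families may share reads. Library numbers follow accession order.

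Counts were scaled with TMM factors (0.958 to 1.05) in edgeR 4.0.16 under R 4.3.3. The 6 rows, the lists and the tests were chosen with earlier results of these data known. Variation between libraries was tested with an intercept-only negative binomial fit in edgeR, adjusted by Benjamini-Hochberg over 214 features, and with DESeq2 1.42.0. Ratios and correlations used exact permutation tests in Python 3.11.15 with scipy 1.17.1. The variation, sign-flip and correlation tests were tried on simulated data. Named besides the 6 rows were the 3 features most correlated with each and the rows of the fixed lists. No library pair agreed within counting noise (chi-square per degree of freedom at least 365), so none was merged. This does not show that the 6 came from separate fish. A count of 3 corresponds to 0.173 to 0.256 CPM.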

Additional observations from a re-analysis of the deposited data

Results flagged for a closer look

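Of 43 levels, shares and ratios of the 6 rows checked for 1 library far from the rest, 2 passed Dixon's criterion for 6 values (gap over range above 0.625), and chance flags about 1 in 20, or 2.15 of 43. Both concern library 4 and are not independent, since mir-128 is most of the sum. The share of mir-128 in all counts reached 9.09% in library 4 (exact 95% limits 9.08% and 9.11%), against 5.17% to 6.36% in the others. The share of the 6 rows together reached 11.1% in library 4 (limits 11.06% and 11.10%), against 6.84% to 8.21% in the others. As TMM-scaled CPM, mir-128 in library 4 had a gap over range of 0.624 and did not pass.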

How the results depend on the processing

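With mir-181 left out of the total, the share of the 6 rows was 11.8%, and each of their 6 levels rose by over 1 SD. The mir-181 row averaged 291914 CPM, so leaving it out must raise every other row, and the shift is not particular to the 6 rows. Plain CPM and DESeq2 size factors moved none of the 6 levels by over 1 SD. A total without mir-128, tried for the rows other than mir-128, moved none of those by over 1 SD. With 0.5 added to each count, with medians or without any 1 library, the 15 ratios kept their sign. Adding 0.5 could hardly move them, since the lowest count was 5949. For mir-138 over mir-129 the sign says little, since the log2 ratio was 0.11 ± 0.46, and 0.0077 ± 0.44 without library 4. With 5 libraries the smallest p is 0.063, so these runs test direction only. Without mir-128 the log2 ratios of the sum reversed to -1.61 against mir-9 and mir-124 and -0.42 against mir-132 and mir-132b. With mean log2 values in place of sums these ratios reversed to -1.78 and -1.27. Against mir-219 and mir-338 the ratio fell to near 0 by both routes. It was -0.012 ± 0.086 without mir-128 (exact permutation adjusted p = 0.75). With mean log2 values it was -0.079 ± 0.125 (exact permutation adjusted p = 0.188). The count of features called as varying was 8 of 214 (3.74%). It was 6 to 10 in the other edgeR runs, of 146 to 286 tested, and 3 by DESeq2's dispersion outliers. None of the 6 rows was called in these runs, but spreads of their size could hardly pass edgeR's test, so this is no check of steadiness. By the Poisson rule all 6 were called. All 15 correlations kept their sign under 4 other scalings, and none passed after adjustment. Without 1 library, r changed sign 5 times among 4 pairs: mir-128 with mir-218 without library 3 (-0.21), mir-137 with mir-138 without library 6 (0.08), mir-138 with mir-218 without library 5 (0.18) and mir-129 with mir-138 without library 6 (-0.27) or library 5 (-0.06). The cause was not tested. For mir-129 with mir-153, r stayed between -0.96 and -0.93 without any 1 library and between -0.94 and -0.84 under the other scalings, with an adjusted exact permutation p of 0.104 to 0.365.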
